A study of Mus musculus with 4 samples.

Results

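IL-4, IL-5, IL-9, IL-13 and IL-10 were followed in serum of mice with experimental autoimmune encephalomyelitis (EAE), an autoimmune inflammation of the brain and spinal cord used as a model of multiple sclerosis. The 5 proteins were taken by name from a panel of 32, and the choice was made with earlier results of these data known. There were 2 EAE samples and 2 control samples, all serum of male C57BL/6 mice, and the series calls the controls vehicle controls. Each sample was read on 1 antibody array, where spotted capture antibodies bind a protein and a biotin label makes it visible. The sources used here do not give the age of the mice, the way EAE was induced, the vehicle or the day of bleeding. The protocol gathers serum in a single tube and does not state how many mice contributed, so the p-values below cover the variation among these 4 samples only, and that variation may be technical. A serum level also cannot tell fewer producing cells from less protein released by each cell.

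Type 2 cytokines are made mainly by T helper 2 cells, type 2 innate lymphoid cells, mast cells and basophils, and they direct defence against worms and allergic inflammation. IL-4 drives T helper 2 differentiation and antibody class switching, IL-13 acts on epithelium and mucus production, IL-5 supports eosinophils, and IL-9 acts on mast cells and T cells. IL-4 and IL-13 both signal through the IL-4 receptor alpha chain, and IL-4, IL-9 and IL-2 share the common gamma chain. IL-5, IL-3 and GM-CSF share the common beta chain. IL-10 is an anti-inflammatory cytokine of regulatory T cells, B cells and macrophages with a receptor of another family, and it restrains EAE in mice. In the RefSeq annotation of assembly GRCm38.p6 the mouse genes Il4 and Il13 lie next to each other with 0 annotated genes between them, and Il5 is separated from Il13 by Rad50 and a pseudogene.

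Levels are given on 2 scales. Brightness is the deposited spot intensity as a percentage of the positive-control average of the same array and keeps the background of the support. The normalised signal is the authors' deposited value, in which the blank average is 0 and the positive control is 1. The brightest background row was a separate blank row that is not named as an average. It stood at 21.7% and 22.1% of the positive control on the EAE arrays and at 20.1% and 21.0% on the control arrays. Brightness near these values is therefore background. A difference in log2 brightness is smaller than the change of the protein itself, whereas the normalised signal of a dim protein depends on which background is subtracted. The positive-control average was 52253 and 50210 intensity units on the EAE arrays, against 54202 and 53284 on the control arrays. The panel as a whole was dimmer in EAE, with a median normalised signal of 0.0659 and 0.0556 in EAE, against 0.236 and 0.250 in controls.

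All 5 cytokines had lower values in both EAE sera than in both control sera, and they differed widely in how much lower. Among the 5, IL-13 had the largest difference in brightness and IL-10 the smallest, with IL-5 and IL-9 between them and IL-4 close to IL-10. The IL-10 control spots stood at 25.4% and 25.3% of the positive control, near the background, which limits how far its brightness could fall. In normalised signal IL-4 had the smallest difference, 1.38-fold lower against 1.71-fold for IL-10. In the limma fit of log2 brightness over the 32 proteins, 4 of the 5 (IL-4, IL-5, IL-9 and IL-13) fell past an adjusted p of 0.05 and 0 rose. The share of the whole panel called lower was 90.6%, so the count of 4 is near the background. The same holds for the ordering of the samples, since 96.9% of the panel had both EAE values below both control values. The median difference was -0.66 over the 5 cytokines and -0.54 over the panel in log2 brightness. In log2 normalised signal it was -1.94 over the 5 and -1.84 over the panel, where 4 of the 5 (IL-5, IL-9, IL-13 and IL-10) were called lower against 93.8% of the panel.

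**Figure D1:**
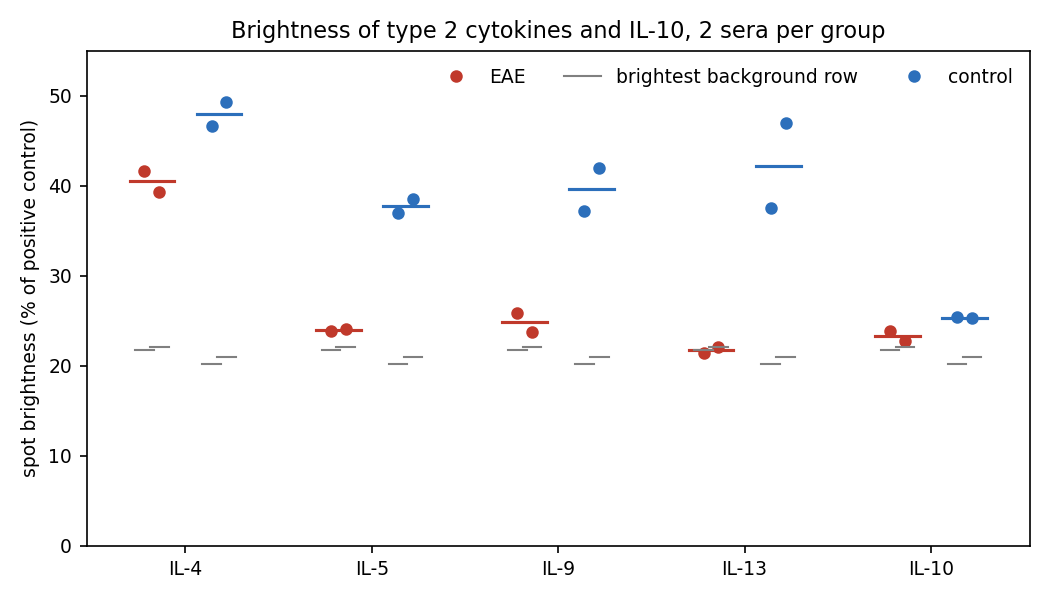
Spot brightness as a percentage of the positive control (vertical axis, from 0) for the 5 cytokines, with 2 EAE sera in red to the left of 2 control sera in blue. Coloured bars are group means and grey bars mark the brightest background row of each array. EAE values of IL-13 lie at the grey bars, and those of IL-4 stay far above them at 41.6% and 39.3%.

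IL-13 showed the widest separation of the 5. Its brightness was 21.4% and 22.0% of the positive control in EAE sera, against 37.5% and 46.9% in control sera. Both EAE spots lay under the brightest background row, at -195 and -19.5 intensity units from it, so the EAE level of IL-13 is an upper limit. The control spots lay 9404.5 and 13837.5 units above that row, and they differed from each other more than those of the other 4 cytokines, with a log2 gap of 0.32 against a panel median of 0.12 between controls. The log2 brightness difference was -0.95 ± 0.13 (limma SE, n = 2 per group, adjusted p = 0.0047). The EAE spots were also set to the dimmest protein above background on the same array. Against the control mean, IL-13 was then at least 1.87-fold lower in brightness and at least 7.22-fold lower in normalised signal. The second bound sets EAE levels of 0.0395 and 0.0397 against control normalised signals of 0.235 and 0.348. Both bounds leave out the spread of the controls. The limma intervals of the measured folds reached down to 1.52-fold in brightness and 5.79-fold in normalised signal. The deposited EAE signals of IL-13 itself were 0.0279 and 0.0326. At its bound IL-13 was level with IL-12p70, which was 1.87-fold lower in brightness, so its place at the head of the panel is not settled.

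IL-5, the eosinophil growth factor, had the tightest EAE values of the 5. Its brightness was 23.8% and 24.1% of the positive control in EAE sera, against 36.9% and 38.5% in control sera. Its normalised signal was 0.0582 and 0.0579 in EAE, against 0.228 and 0.245 in controls. The groups were separated by far more than the gap within either group. The log2 brightness difference was -0.66 ± 0.06 (limma SE, n = 2 per group, adjusted p = 0.0024), or 1.58-fold lower with a 95% interval of 1.42-fold to 1.75-fold. In normalised signal IL-5 was 4.07-fold lower, with an interval of 2.73-fold to 6.06-fold. The EAE spots stood 1087.5 and 1005.5 intensity units above the brightest background row, so this fold depends on the background subtracted. The log2 difference was -2.02 with the blank average and -3.05 with the separate blank row.

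IL-9, the mast cell and T cell factor, fell by about as much as IL-5 but with more spread. Its brightness was 25.9% and 23.7% of the positive control in EAE sera, against 37.2% and 41.9% in control sera. The log2 brightness difference was -0.67 ± 0.09 (limma SE, n = 2 per group, adjusted p = 0.0047). Its normalised signal was 0.0840 and 0.0533 in EAE, against 0.232 and 0.287 in controls, or 3.85-fold lower with a 95% interval of 2.27-fold to 6.52-fold. The first EAE serum lay 2178.5 units above the brightest background row and the second 820.5 units. Subtracting the separate blank row moved the log2 difference of -1.94 to -2.83.

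IL-4, the cytokine that defines T helper 2 cells, was far above background in EAE. Its brightness was 41.6% and 39.3% of the positive control in EAE sera, against 46.7% and 49.3% in control sera, and the EAE spots stood 10379 and 8670 intensity units above the brightest background row. The normalised signal was 0.278 and 0.247 in EAE, against 0.347 and 0.377 in controls. The groups did not overlap, and the distance between the lowest control and the highest EAE value was larger than the gap within either group. The log2 brightness difference of -0.25 ± 0.06 (limma SE, n = 2 per group) passed with an adjusted p of 0.022. In normalised signal the difference was 1.38-fold, with a 95% interval from 0.92-fold to 2.07-fold lower, and it did not pass (limma adjusted p = 0.11). The brightness call also ended without EAE replicate 1 (limma adjusted p = 0.082), without EAE replicate 2 (0.16) and when the spread was allowed to vary with the level (0.051).

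IL-10, the anti-inflammatory member, was dim in both groups. Its brightness was 23.9% and 22.7% of the positive control in EAE sera, against 25.4% and 25.3% in control sera. The second EAE serum lay only 317 intensity units above the brightest background row, the first 1128 units, and the control sera 2855 and 2303.5 units. The log2 brightness difference was -0.12 ± 0.06 (limma SE, n = 2 per group, adjusted p = 0.10), with a 95% interval from -0.28 to 0.04. In normalised signal, at 0.0592 and 0.0409 in EAE against 0.0866 and 0.0821 in controls, IL-10 was 1.71-fold lower with an interval of 1.07-fold to 2.75-fold (limma adjusted p = 0.035). That call ended when the negative-control average was subtracted in place of the blank average (limma adjusted p = 0.10). With the separate blank row the log2 difference moved to -2.01 (limma adjusted p = 0.046). In brightness IL-10 passed narrowly when the spread was allowed to vary with the level (limma adjusted p = 0.0499). The direction of IL-10 in brightness was the same on both EAE arrays, whereas its size depends on the scale.

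**Figure D2:**
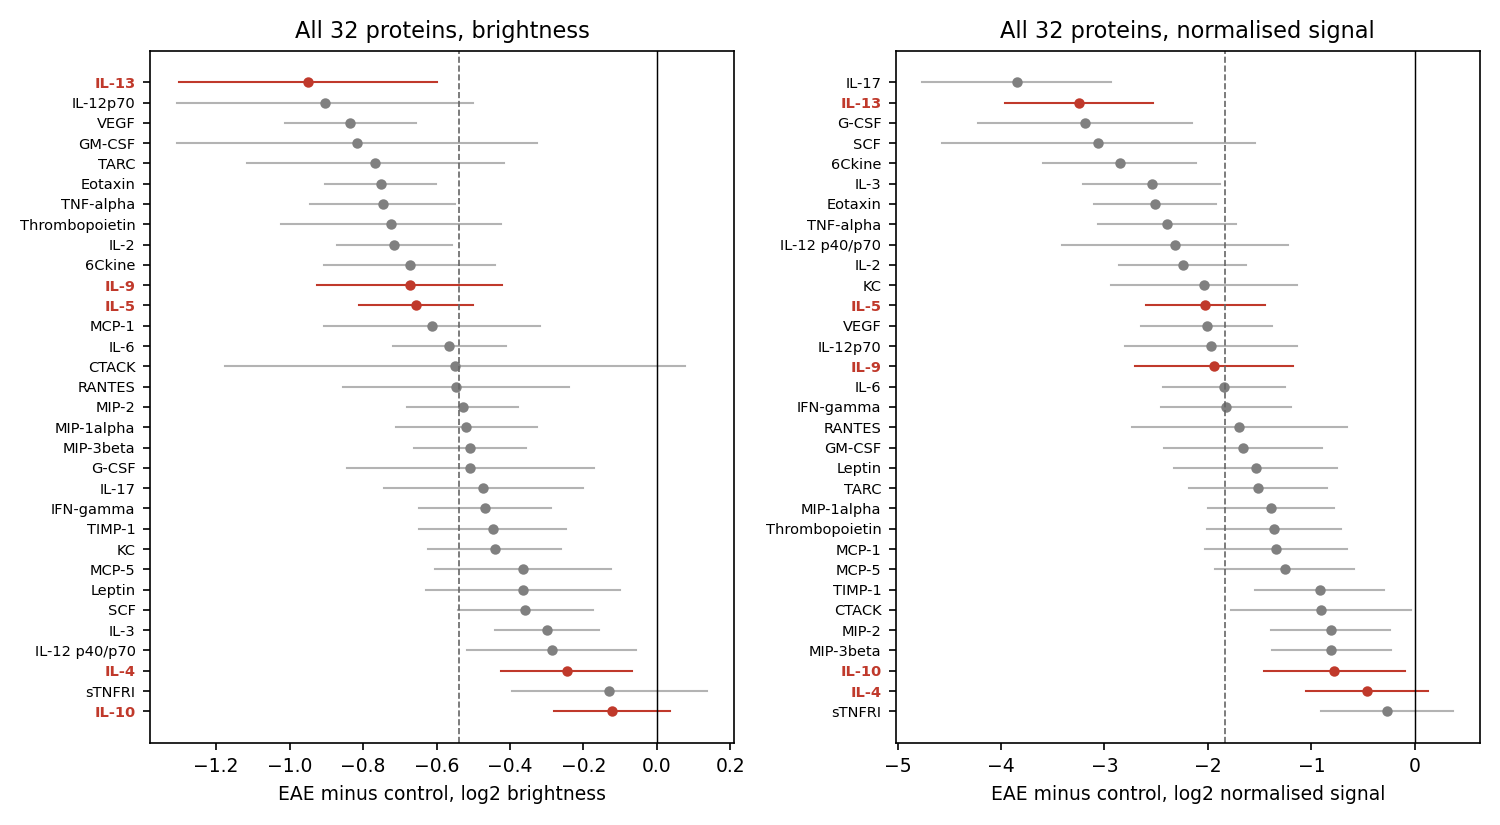
EAE minus control difference of all 32 proteins in log2 brightness (left) and log2 normalised signal (right), each with its 95% limma interval. Red marks the 5 cytokines, grey the other proteins, and the dashed line is the panel median of -0.54 (left) and -1.84 (right). IL-13 as measured, not at its bound, lies at or near the top of both rankings, IL-4 and IL-10 near the bottom, and IL-5 and IL-9 near the dashed line.

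The 5 cytokines were next compared with each other within each array. A ratio of 2 intensities on the same array does not change when the whole array is scaled, so it asks whether 2 spots changed unequally in intensity. Intensity keeps the background, so an equal fold change of 2 proteins can also shift the ratio of a bright and a dim spot. The antibodies differ in how they bind, so a ratio is not a ratio of protein amounts and is read only between groups. The ratio was fitted with limma for all 496 pairs of the 32 proteins, and p-values were adjusted over all of them. Of the 10 pairs among the 5 cytokines 4 changed, where 9.27% of all pairs did. Pairs share proteins, so neither these counts nor the spread pooled across pairs rest on independent values. An exact permutation test over the 4 samples gives p = 0.333 for each of the 9 pairs whose groups do not overlap, the smallest that 2 against 2 allows.

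The ratio of IL-4 to IL-13 was 1.95 and 1.79 on the EAE arrays, against 1.25 and 1.05 on the control arrays. Both EAE ratios were above both control ratios. The change was 0.71 ± 0.14 on the log2 scale (limma SE, adjusted p = 0.029), or 1.63-fold with a 95% interval of 1.32-fold to 2.01-fold. Because IL-13 was not above background in EAE, the ratio was also formed with IL-13 at the dimmest level above background. It was then at least 1.58-fold above the control mean in intensity and at least 5.23-fold in normalised signal, bounds that leave out the spread of the controls. In normalised signal as deposited, the ratio was 9.97 and 7.59 in EAE, against 1.48 and 1.08 in controls.

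The other 3 pairs that changed in intensity all involved IL-10. The ratio of IL-13 to IL-10 was 0.894 and 0.970 in EAE, against 1.48 and 1.86 in controls, a log2 change of -0.83 ± 0.14 (limma SE, adjusted p = 0.029). With IL-13 in EAE at the dimmest level above background, IL-10 over IL-13 was at least 1.72-fold above the control mean in intensity and at least 4.21-fold in normalised signal. These bounds too leave out the spread of the controls. The ratio of IL-5 to IL-10 was 0.997 and 1.06 in EAE, against 1.45 and 1.52 in controls (log2 change -0.53, limma adjusted p = 0.032). The ratio of IL-9 to IL-10 was 1.08 and 1.04 in EAE, against 1.47 and 1.66 in controls (log2 change -0.55, limma adjusted p = 0.032). In all 3 the EAE ratios lay below the control ratios, so the IL-5, IL-9 and IL-13 spots were dimmer relative to the IL-10 spot in EAE than in controls. In normalised signal the log2 changes were -1.25, -1.17 and -2.47 for IL-5, IL-9 and IL-13 over IL-10. With the negative-control average subtracted, IL-13 over IL-10 passed (limma adjusted p = 0.017). IL-5 and IL-9 over IL-10 then did not (limma adjusted p = 0.095 and 0.085). In EAE the spots of these 4 cytokines lay at most 2178.5 intensity units above the brightest background row.

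The remaining pairs did not pass in intensity. In normalised signal 8 of the 10 pairs passed, where 190 of all 496 did. Besides the 4 that changed in intensity, IL-4 over IL-5 and IL-9 passed (limma adjusted p = 0.0048 and 0.0075). IL-5 and IL-9 over IL-13 passed as well (limma adjusted p = 0.026 and 0.021), with IL-13 not above background in EAE. With the negative-control average subtracted, 6 of the 10 passed, including these pairs, where 63 of 351 did. The intensity ratio of IL-4 to IL-5 was 1.75 and 1.63 in EAE, against 1.26 and 1.28 in controls (limma adjusted p = 0.061). That of IL-4 to IL-9 was 1.61 and 1.66 in EAE, against 1.25 and 1.18 in controls (limma adjusted p = 0.056). Their groups did not overlap, and the log2 intervals were 0.14 to 0.68 and 0.15 to 0.70. The ratio of IL-4 to IL-10 was 1.74 and 1.73 in EAE, against 1.84 and 1.95 in controls, a log2 change of -0.12 with a 95% interval from -0.40 to 0.15. In normalised signal that change turned to 0.31, with an interval from -0.56 to 1.19. The ratio of IL-5 to IL-9 was 0.919 and 1.02 in EAE, against 0.992 and 0.919 in controls, so the groups overlapped, and its change of 0.02 had an interval from -0.27 to 0.30. For IL-5 to IL-13 and IL-9 to IL-13 the changes were 0.30 and 0.28, with intervals that reach 0 (limma adjusted p = 0.16 and 0.17). Leaving out EAE replicate 1 or EAE replicate 2 left 0 of the 10 pairs past the threshold, where 0.202% and 0% of all 496 pairs passed. Leaving out control replicate 1 gave 8 of the 10, against 57.1% of all pairs, and control replicate 2 gave 6, against 25% of all pairs. In a fit with 1 EAE array the spread is that of the controls, and the single EAE sample is taken to vary as they do.

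**Figure D3:**
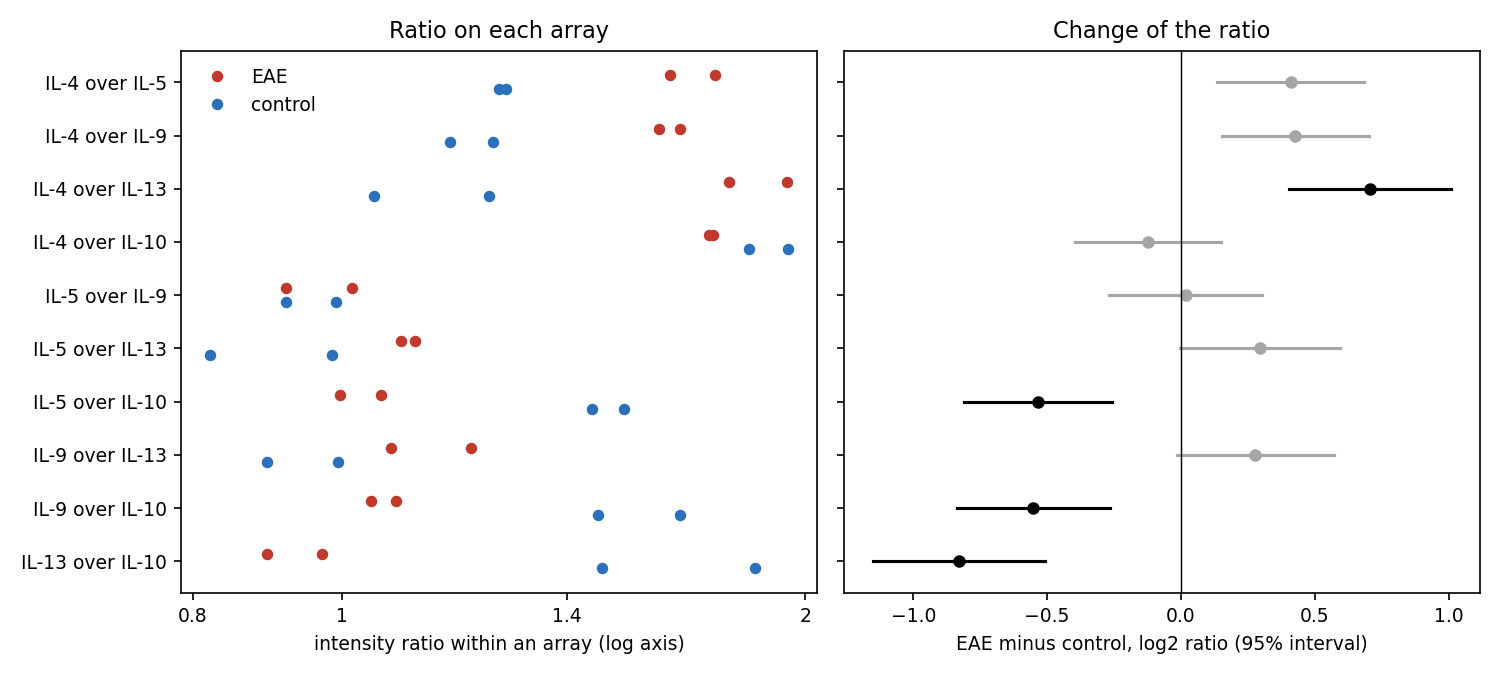
Left, intensity ratios of the 10 cytokine pairs on each array (log axis), with EAE in red above control in blue. Right, EAE minus control change of the log2 ratio with its 95% limma interval, black where the adjusted p is under 0.05. IL-4 over IL-13 is higher in EAE, and IL-13, IL-5 and IL-9 over IL-10 are lower.

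Relative to the summed signal of their array, IL-4 and IL-10 were higher in EAE and the other 3 cytokines lower. The share of each cytokine in the summed normalised signal of the 32 proteins was computed for each array, where the sum was 3.56 and 3.07 in EAE and 8.25 and 9.25 in controls. IL-4 made up 7.80% and 8.06% of the sum in EAE, against 4.21% and 4.07% in controls. IL-10 also took a larger share, with 1.66% and 1.33% in EAE, against 1.05% and 0.888% in controls. How IL-10 stands to the panel depends on the background subtracted. With the negative-control average its log2 difference was -1.09, against a median of -1.99 over 27 proteins. With the separate blank row it was -2.01, against a median of -1.99 over 24 proteins. Shares were not computed on those backgrounds. IL-13 took a smaller share, with 0.783% and 1.06% in EAE, against 2.84% and 3.76% in controls. IL-5 and IL-9 had smaller shares as well, at 1.76% ± 0.18 and 2.05% ± 0.44 in EAE, against 2.70% ± 0.080 and 2.95% ± 0.21 in controls (SD, n = 2 each). None of the 5 overlapped between groups, with 2 higher and 3 lower in EAE. Over the panel 21.9% of the proteins were higher without overlap, CTACK, MIP-2, MIP-3beta, sTNFRI and TIMP-1 besides IL-4 and IL-10, and 53.1% were lower. An exact permutation of 2 against 2 samples cannot give a p under 0.333.

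**Figure D4:**
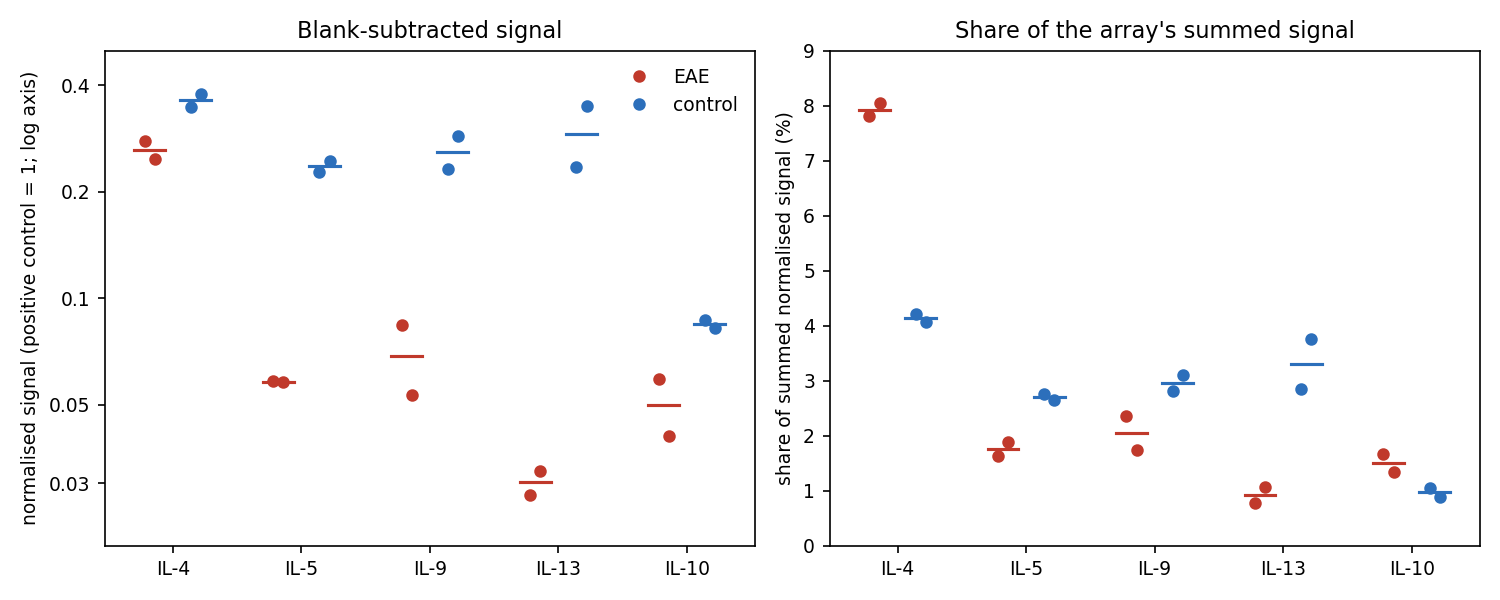
Left, the authors' normalised signal of each cytokine on a log axis, and right, its share of the summed normalised signal of the 32 proteins in percent, with EAE sera in red to the left of control sera in blue and bars for group means. All 5 lie lower in EAE on the left, whereas on the right IL-4 and IL-10 lie higher in EAE.

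With arrays scaled to the same median intensity, IL-4 and IL-10 were higher in EAE and the other 3 did not pass. The log2 differences were 0.42 ± 0.07 for IL-4 (limma SE, adjusted p = 0.019) and 0.54 ± 0.07 for IL-10 (adjusted p = 0.011), and 12.5% of the panel was called higher. This scaling takes the panel median as unchanged and left the median of all 32 differences at 0.12. It was applied to intensities that keep the background, and IL-3, not above background in EAE, passed as higher too (0.36, limma adjusted p = 0.022). So did sTNFRI (0.53, limma adjusted p = 0.022), which was bright in EAE at 38.2% and 44.2% of the positive control. Under quantile normalization IL-4 passed as higher (0.31, limma adjusted p = 0.034) and IL-10 did not (0.36, adjusted p = 0.069). Under median scaling IL-5, IL-9 and IL-13 differed by 0.01, -0.01 and -0.29. The IL-13 value rests on EAE spots that were not above background, and the IL-10 value on EAE spots 1128 and 317 intensity units above it.

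The proteins whose profiles over the 4 arrays were closest to each cytokine, by Euclidean distance of log2 brightness centred on the control mean, were found among the other 27. For IL-13 they were IL-12p70 and GM-CSF, at distances of 0.19 and 0.22. IL-5 lay closest to IL-2 and the chemokine 6Ckine, at 0.09 and 0.10, and IL-9 closest to 6Ckine and MCP-1, at 0.07 and 0.09. IL-4 lay closest to IL-3 and IL-12 p40/p70, at 0.11 and 0.19, both of which were not above background in EAE. IL-10 lay closest to the soluble receptor sTNFRI and to IL-3, at 0.21 and 0.26. Among the 5 themselves the closest were IL-5 and IL-9, at 0.13, and IL-4 and IL-10, at 0.19, and the farthest were IL-13 and IL-10, at 1.20.

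Cytokines that share a receptor chain with the 5 were lower as well, 3 of 3 in both scales. IL-2, a T cell growth factor that uses the common gamma chain like IL-4 and IL-9, had a log2 brightness difference of -0.71 ± 0.06 (limma SE, adjusted p = 0.0024). Of the cytokines of the common beta chain, GM-CSF, a myeloid factor, differed by -0.82 ± 0.18 (adjusted p = 0.013) and IL-3, a factor of early blood cells and basophils, by -0.30 ± 0.05 (adjusted p = 0.0070), with IL-3 not above background in EAE. Both chemokines linked to type 2 responses fell, with -0.75 ± 0.05 for Eotaxin, which recruits eosinophils, and -0.77 ± 0.13 for TARC, which attracts T helper 2 cells through CCR4 (limma SE, adjusted p = 0.0024 and 0.0066). The cytokines linked to T helper 1 and 17 responses, IFN-gamma, IL-12p70, IL-12 p40/p70 and IL-17, gave 4 of 4 lower in both scales. Their median log2 difference was -0.47 in brightness, against -0.54 over the panel. In normalised signal it was -2.15, against -1.84 over the panel, so their standing to the panel depends on the scale. Of these 4, only IFN-gamma and IL-12p70 stood above background in both EAE sera. All of these counts stand against 90.6% of the panel called lower in brightness and 93.8% in normalised signal.

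The deposited numbers of IL-4 and IL-10 differ in form from the rest. Of the 128 protein intensities 124 are multiples of 0.5 to within 1e-06, as the mean of 2 whole-number spots would be. The other 4 are the IL-4 values of 21733.68 and 19756.56 and the IL-10 values of 12483.15 and 11404.01, which are those of the EAE arrays. As plain means of whole numbers rounded to hundredths they would need at least 19, 9, 13 and 67 values. The results in which IL-4 and IL-10 stand apart from IL-5, IL-9 and IL-13 rest on these 4 values, and whether they were processed differently was not tested.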

How the data were processed

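The 4 serum samples were read on antibody arrays with a biotin label. The deposited intensity values are spot brightness, with control rows averaged per the file headers and row names; they were not background-subtracted or scaled, as the values show. The authors' deposited ratio, called normalised signal here, was recomputed as intensity minus the blank average over positive-control minus blank average, with a largest deviation of 1.2e-07. The imaging software is not given in the sources used here.

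Log2 intensity over the positive-control average was fitted with limma 3.58.1 (R 4.3.3, lmFit and eBayes, two-sided, EAE minus control, no other term) over 32 proteins, with Benjamini-Hochberg adjustment and a threshold of 0.05. All 496 within-array log2 ratios were fitted alike. With 2 residual degrees of freedom, pooling added 1.99 for proteins and 8.34 for pairs. The fits were tested on simulated data. A protein was above background if brighter than the blank average, negative average and separate blank row of its array. Bounds set the EAE spot to the higher of its own value and the dimmest protein above background. Precision is limited by there being 4 arrays. Members, lists and tests were chosen with earlier results of these data known. Named proteins were the 5 members, the listed proteins (by value in lists of up to 3) and the 2 nearest profiles of each member. Gene symbols of all 5 matched the RefSeq table. Alternatives were other scalings, backgrounds, filters, a trend, blocks and left-out samples. The same-numbered samples had deviations that correlated at -0.16 across proteins.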

Additional observations from a re-analysis of the deposited data

How the results depend on the processing

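The crossed block, the subtraction of the separate blank row and the fit without IL-4 and IL-10 were chosen after seeing the data. Of the 5 cytokines, 3 or 4 were called lower under every setting tried except 2, including the replicate block (4, with 30 of the panel; crossed numbers gave 4 and 30), and leaving out 1 array gave 3 to 4. The background filter and the separate blank row left 4 of the 5 to test, without IL-13. The filter called IL-4, IL-5 and IL-9, with 22 of 24 panel proteins, and the separate blank row IL-5, IL-9 and IL-10, with 21 of 24. The negative average called IL-5, IL-9 and IL-13, with 21 of 27. The 2 exceptions, arrays scaled to the same median and quantile normalization, set the panel equal between arrays and both gave 0 lower members and 0 lower panel proteins. The differences then turned to 0.42 and 0.31 for IL-4, to 0.54 and 0.36 for IL-10 (the second not past the threshold, limma adjusted p = 0.069) and to 0.0075 and 0.029 for IL-5. The panel count of 29 was 13 by the rule of 1.5-fold in brightness and 19 to 30 with 1 array left out. The count of changed pairs, 46, was 190 in normalised signal, 66 with the replicate block, and 0 to 283 with 1 array left out. The log2 change of IL-4 over IL-13 ranged from 0.58 to 0.83 with 1 array left out, with limma adjusted p = 0.20 without EAE replicate 1 and 0.29 without EAE replicate 2. It was 2.78 in normalised signal and 3.58 with the negative average subtracted. Filtering on background removed IL-13 and this pair. The sample titles number the sera within each group and state no pairing. The correlation of -0.16 between same-numbered deviations cannot decide it with 2 samples per group. Each block leaves 1 residual degree of freedom. Signal over background limits IL-13, and in EAE also IL-10, IL-5 and IL-9.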
